A study of Mus musculus with 12 samples.

Results

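A group of 8 marker genes of border-associated macrophages was followed in the cortex of 12 mice. They are Mrc1, Lyve1, Cd163, Stab1, Pf4, F13a1, Cbr2 and Ms4a7. The selection rule used their symbols and not their values, but the list was made with earlier results of these data known. All 8 were among the 17202 genes of the table of normalized counts, and all 8 were among the 17111 genes whose normalized count averaged at least 10 and that were tested. The study asked whether curcumin, verapamil or both improve the behaviour of a mouse model of Williams–Beuren syndrome. It sequenced cortex RNA of vehicle and co-treated mice, beside behavioural tests, microglia staining and neuroanatomy. CD mice carry a heterozygous deletion that runs from Gtf2i to Fkbp6, and WT mice carry none. The labels give cortex, strain C57Bl6 and an age of 16 weeks for the mice, and the study's methods add that the mice were male and came from a cross with a Thy1-YFP line, whose transgene marks pyramidal neurons in both genotypes. There were 4 groups of 3 mice, VEH-WT and VERCUR-WT with the full chromosome and VEH-CD and VERCUR-CD with the deletion. VEH mice, called untreated in the labels, drank water with DMSO, which the study's methods also name for the curcumin drink. VERCUR mice drank curcumin at 60 and verapamil at 10 mg/kg/day, from 8 weeks of age and for 1 month according to the labels, while the study's methods give a lower verapamil dose and an earlier end. The compounds were given together, so their separate effects cannot be told apart in these samples. The sources used here do not say whether the meninges were kept on the tissue.

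Border-associated macrophages are the resident macrophages of the meninges, of the perivascular spaces and of the choroid plexus. They depend on the receptor CSF1R, as microglia do, but they lie outside the brain tissue proper and take up material from the blood and the cerebrospinal fluid through scavenger and lectin receptors. Genes such as Mrc1, Lyve1, Cd163 and Pf4 are used to tell them from microglia. None of the 8 genes belongs to these cells alone. Lyve1 is also a gene of lymphatic endothelium, Stab1 of sinusoidal endothelium in other organs, and Pf4 and F13a1 of platelets and their precursors. The samples were bulk tissue, in which fewer cells of a type and less RNA per cell cannot be told apart.

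The libraries held 40287647 to 56480948 counted reads per mouse. Within a group, the log2 values of all genes correlated between mice at r = 0.986 to 0.994. Of the genes used as a check of the deletion, 10 of 10 were called lower in CD than in WT mice, with log2 fold changes of -0.95 for Gtf2i, -0.70 for Gtf2ird1 and -1.06 for Clip2 in VEH-treated mice. The neurons' markers were present, with 8 of 8 genes of cortical projection neurons tested, Slc17a7 and Tbr1 among them.

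In GRCm38, the receptor genes are Stab1 (ENSMUSG00000042286.13, chr14:31139013-31168641, minus strand), Mrc1 (ENSMUSG00000026712.3, chr2:14229392-14332057, plus strand), Lyve1 (ENSMUSG00000030787.4, chr7:110850607-110863239, minus strand) and Cd163 (ENSMUSG00000008845.9, chr6:124304656-124330527, plus strand). The genes of secreted proteins are Pf4 (ENSMUSG00000029373.7, chr5:90772435-90773383, plus strand) and F13a1 (ENSMUSG00000039109.16, chr13:36867178-37050244, minus strand). Cbr2 (ENSMUSG00000025150.10, chr11:120729489-120732114, minus strand) and Ms4a7 (ENSMUSG00000024672.11, chr19:11321039-11336146, minus strand) complete the group. The values are sums over whole genes, so exons and transcripts of a gene cannot be told apart.

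The 8 genes were expressed at low to middle levels. Stab1, which encodes the scavenger receptor stabilin-1, had the highest mean normalized count of the 8 at 569, above 45.5% of the genes tested. Mrc1 (the mannose receptor CD206) had a mean of 146, F13a1 (the A chain of coagulation factor XIII) of 77.0 and Cd163 (the haptoglobin and haemoglobin receptor) of 34.8. Lyve1 (a hyaluronan receptor) stood at 30.8, Pf4 (the chemokine CXCL4) at 26.2, Cbr2 (a carbonyl reductase) at 25.8 and Ms4a7 (a membrane-spanning protein of macrophages) at 13.9. Only 9 to 18 reads per mouse lay behind Ms4a7, and 15 to 37 behind Pf4. The counting error alone was then 27.0% of the Ms4a7 level and 19.5% of the Pf4 level, against 4.19% for Stab1.

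Per kb of exon, the order over the 12 mice was Stab1, Pf4, Mrc1, Cbr2, F13a1, Lyve1, Cd163 and Ms4a7. Stab1 had 55.3 ± 11.8 normalized counts per kb (SD, n = 12) and Pf4 had 36.4 ± 8.47, and Stab1 was the higher of the pair in 11 of 12 mice. Mrc1 followed with 22.8 ± 5.99 and Cbr2 with 19.5 ± 5.72 normalized counts per kb. These neighbours were not separated beyond their spread, as Mrc1 was the higher in only 8 of 12 mice. F13a1 at 11.4 ± 2.54 and Lyve1 at 10.6 ± 4.002 normalized counts per kb were just as close, with F13a1 higher in 9 of 12 mice. Cd163 had 6.37 ± 1.57 and Ms4a7 had 3.12 ± 0.94 normalized counts per kb, and Cd163 was the higher in 12 of 12 mice. Within groups the mice varied by 11.2% (CV) for Stab1 and by 19.9% to 33.4% for the other 7 genes, so the spread of Pf4 was close to its counting error while that of Mrc1, at 27.9%, was well above its counting error of 8.27%.

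**Figure D1:**
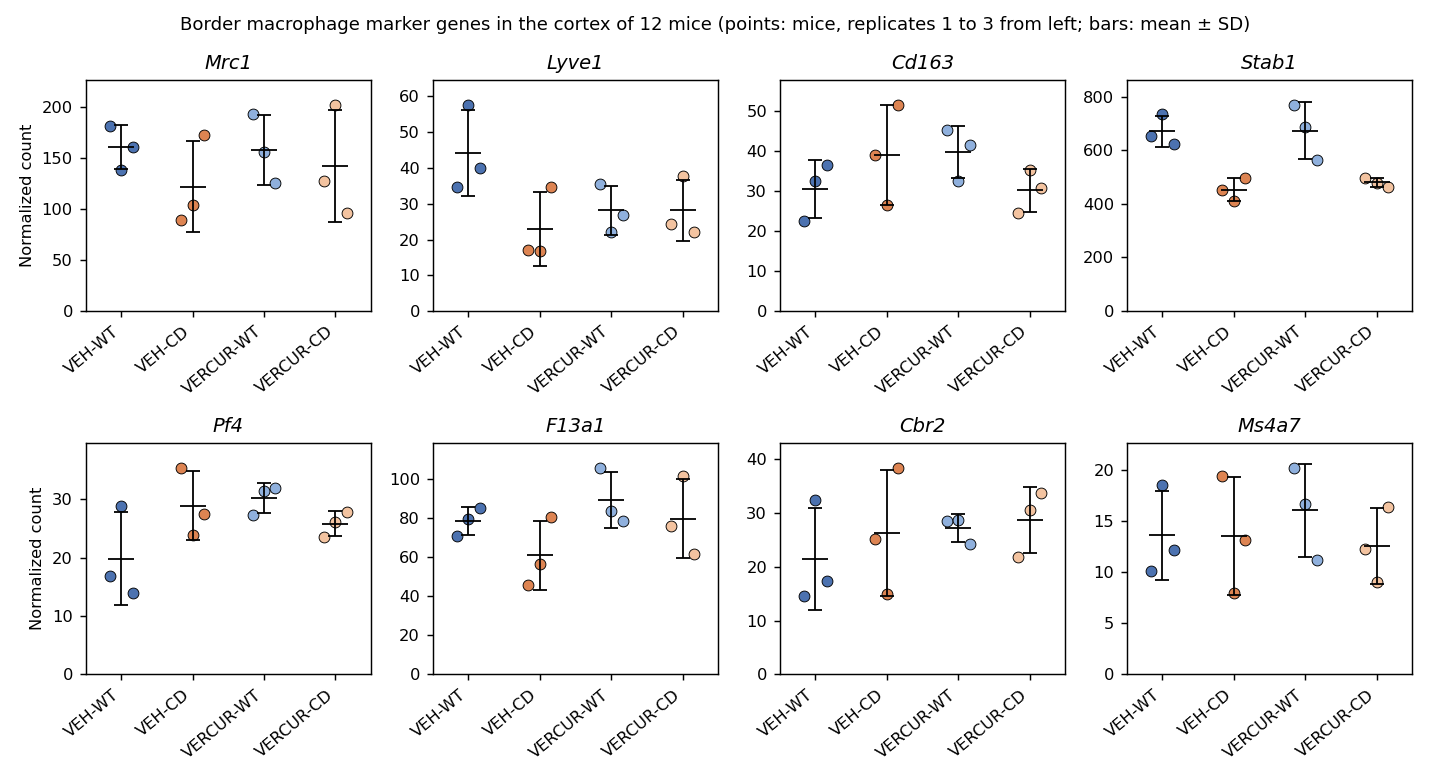
Normalized count (linear axis from 0) of each of the 8 genes in each mouse, by group; points are mice, and bars are the mean ± SD of 3 mice. The 6 CD mice lie below the 6 WT mice for Stab1, while CD and WT mice overlap for the other 7 genes over both treatments.

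The promoters of the genes on which the results turn are shown next: Stab1, whose level differed with the genotype, and Mrc1 and F13a1, the pair that varied together across mice. The sequences are RefSeq promoters on GRCm38.p6, from 250 bases before to 50 bases after the start of the gene, and 7 of the 8 genes had an entry, Lyve1 not among them. Capitals mark the letters GAGGAA or, on the other strand, TTCCTC, which form the core that the macrophage transcription factor PU.1 is known to recognise. The promoters printed are chr14:31168592-31168891 (minus strand), chr2:14229164-14229463 (plus strand) and chr13:37050195-37050494 (minus strand).
Stab1: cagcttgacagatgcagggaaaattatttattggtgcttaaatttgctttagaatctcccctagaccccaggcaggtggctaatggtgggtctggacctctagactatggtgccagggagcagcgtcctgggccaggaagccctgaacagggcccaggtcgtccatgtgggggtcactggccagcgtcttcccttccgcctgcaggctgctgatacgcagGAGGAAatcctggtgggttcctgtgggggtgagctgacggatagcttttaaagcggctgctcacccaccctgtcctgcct
Mrc1: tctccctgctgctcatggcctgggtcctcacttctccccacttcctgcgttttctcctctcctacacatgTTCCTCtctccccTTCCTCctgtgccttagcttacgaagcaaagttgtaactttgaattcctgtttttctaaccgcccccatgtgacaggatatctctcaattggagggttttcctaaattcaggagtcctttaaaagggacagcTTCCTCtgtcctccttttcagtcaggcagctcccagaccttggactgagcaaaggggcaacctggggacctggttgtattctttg
F13a1: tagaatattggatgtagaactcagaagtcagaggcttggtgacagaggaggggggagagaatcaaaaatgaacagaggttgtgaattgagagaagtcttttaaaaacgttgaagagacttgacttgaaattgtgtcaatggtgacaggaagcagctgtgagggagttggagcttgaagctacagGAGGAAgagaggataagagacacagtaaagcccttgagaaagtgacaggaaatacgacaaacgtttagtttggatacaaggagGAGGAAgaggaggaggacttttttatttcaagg
These letters occurred 3 times in the promoter of Mrc1, 2 times in that of F13a1 and 1 time in that of Stab1. Of the 7 promoters, 6 held them at least once, and that of Cd163 did not, beside 28.3% of all 32851 promoters of this length. A half-site of the MAF factors, TGCTGA or TCAGCA, was found in 2 of the 7, Stab1 and Cbr2, and in 19.5% of all promoters. The C/EBP letters TTNNGCAA or TTGCNNAA stood in 1 of the 7, Pf4, and in 10.8% of all. A match is only a match of letters, and these letters can overlap those of other motifs.

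Stab1 was lower in CD mice than in WT mice. In VEH-WT mice its normalized counts were 651.2, 734.3 and 624.9, and in VEH-CD mice they were 451.3, 409.7 and 494.7. VERCUR-WT mice had 770.3, 687.2 and 562.3, and VERCUR-CD mice had 496.45, 479.3 and 462.9. Every CD mouse was below every WT mouse, in either treatment. The group means were 670 ± 57.1, 452 ± 42.5, 673 ± 105 and 479.6 ± 16.8 (SD, n = 3 each), in the order VEH-WT, VEH-CD, VERCUR-WT and then VERCUR-CD. Over both treatments, the log2 fold change of CD against WT was -0.52 ± 0.08 (SE), or a level of 0.696 times that of WT (95% interval 0.616 to 0.787), with an adjusted p of 0.012 in limma over all genes tested. Stab1 was the 1 gene of the 8 called in this comparison, where a call asks for an adjusted p below 0.05 and a level changed by more than 25%. Of all genes tested, 0.321% were called and 0.234% were called lower. Stab1 was also the 1 gene of the 8 with an unadjusted p below 0.05, beside 9.64% of all genes. Its groups of 6 did not overlap, the 1 such case among the 8, beside 0.473% of all genes in that direction. Leaving out 1 mouse at a time kept the call in 11 of 12 fits, and without VERCUR-CD replicate 3 the log2 fold change was -0.51 with an adjusted p of 0.0511.

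Within each treatment the direction of Stab1 was the same, but neither difference was called. VEH-CD mice were at 0.674 times the level of VEH-WT mice, with a log2 fold change of -0.57 ± 0.115 (SE) and an adjusted p of 0.071. Without VERCUR-WT replicate 3, which enters only the estimate of the spread here, the adjusted p was 0.033 and the difference was called. Between VERCUR-CD and VERCUR-WT mice the log2 fold change was -0.48 ± 0.115 and the adjusted p 0.354. The difference of these values, tested as the interaction of genotype and treatment, was 0.09 ± 0.163 (95% interval -0.26 to 0.44, adjusted p = 0.897). VERCUR-CD mice had 1.06 times the Stab1 level of VEH-CD mice (95% interval 0.895 to 1.26, adjusted p = 0.890), and VERCUR-WT mice 0.999 times that of VEH-WT mice (95% interval 0.840 to 1.19, adjusted p = 1.00). VERCUR-CD mice still lay below VEH-WT mice without overlap, at a log2 fold change of -0.48 (adjusted p = 0.241, beside 7.33% of all genes that did not overlap in that direction).

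Stab1 is on chromosome 14, not on chromosome 5, where the deleted interval lies, and Pf4 is the 1 gene of the 8 on chromosome 5. Of the 26 other tested genes within 500 kb of Stab1, 0 were called by limma, and their log2 fold changes of CD against WT over both treatments ran from -0.32 to 0.28. Stab1 shares 112 of its 10288 exon bases with Nt5dc2, a gene on the opposite strand, and whether the reads were counted by strand is not given in the sources used here. Nt5dc2 had a log2 fold change of -0.13 (adjusted p = 0.722). F13a1, which overlaps antisense genes, shares 74 of its 6739 exon bases with Gm30489. Across the 12 mice, 7 of the 8 genes most correlated with Stab1, among genes that averaged at least 50 normalized counts, lie in the deleted interval, with r = 0.917 for Baz1b and 0.900 for Eln, and the other is Adcy4 at r = 0.904. These genes were picked after the values of Stab1 were seen, and the deleted genes divide the mice by genotype, as Stab1 does.

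**Figure D2:**
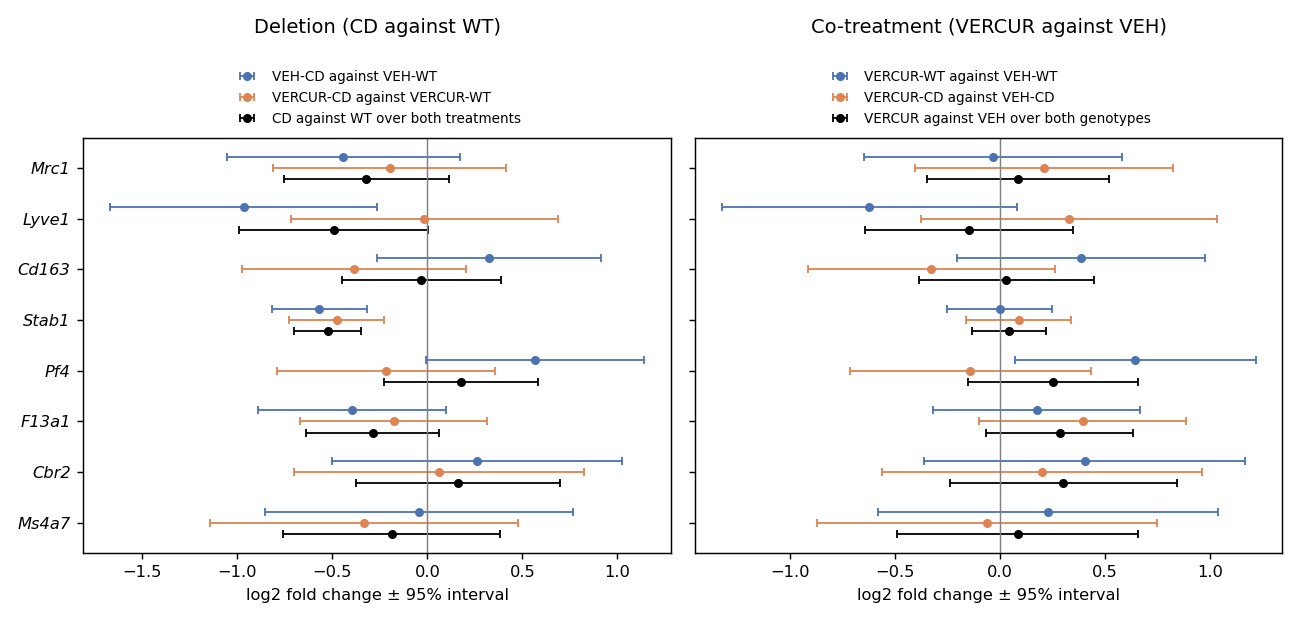
Log2 fold change with its 95% interval for each of the 8 genes (limma, 12 mice), for CD against WT on the left and VERCUR against VEH on the right; colours give the comparison within each arm and over both arms. On the left, the intervals of Stab1 lie below 0 in all of the comparisons drawn, as does that of Lyve1 for VEH-CD against VEH-WT, and on the right only that of Pf4 for VERCUR-WT against VEH-WT lies off 0.

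The other receptors of the list gave no call in any comparison. Lyve1 had normalized counts of 34.75, 57.7 and 39.98 in VEH-WT mice and of 17.1, 16.8 and 34.74 in VEH-CD mice. The VEH groups therefore did not overlap, but the highest VEH-CD value and the lowest VEH-WT value, 34.74 and 34.75, were nearly equal. Their log2 fold change was -0.97 ± 0.32 (SE), or 0.512 times (95% interval 0.314 to 0.833), with an unadjusted p of 0.0109 and an adjusted p of 0.270 in limma. Under co-treatment the values were 35.6, 22.2 and 26.7 in WT mice and 24.4, 37.8 and 22.1 in CD mice, and these groups overlapped. The VERCUR-CD to VERCUR-WT log2 fold change was -0.02 ± 0.32, and the interaction of 0.95 ± 0.46 had an adjusted p of 0.816. Over both treatments, CD against WT gave Lyve1 a log2 fold change of -0.49 ± 0.23 (SE), or 0.711 times (95% interval 0.504 to 1.004). This level was near the 0.696 times of Stab1, but the unadjusted p was 0.0520 and the adjusted p 0.527 in limma. Only 15 to 50 reads per mouse lay behind Lyve1. The study, with its own test and relative values, lists Lyve1 among its top downregulated genes in VEH-CD mice.

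Stab1 and Lyve1 were 2 of the 8 genes whose VEH-CD and VEH-WT mice did not overlap, both lower in CD, and 11.4% of all genes tested did the same. In VEH-CD against VEH-WT, 0 of 8 genes were called by limma, 2 of 8 (the same genes) had an unadjusted p below 0.05, and of all genes 0.257% were called and 11.8% had such a p. Between VERCUR-CD and VERCUR-WT, 0 of 8 were called, 1 of 8 (Stab1) had an unadjusted p below 0.05, and of all genes 0.146% were called and 4.1% had such a p. Stab1 was also the 1 gene of the 8 without overlap there, beside 3.83% of all genes. limma-voom on the recovered reads also called 0 of the 8 genes in each of these comparisons.

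Mrc1 had normalized counts of 181.6, 138.55 and 160.8 in VEH-WT mice and of 89.1, 104.2 and 172.5 in VEH-CD mice. The third of the VEH-CD mice lay inside the range of the WT mice and the other two lay below it. VERCUR-WT mice had 193.5, 155.6 and 125.1, and VERCUR-CD mice had 127.4, 202.3 and 96.2, so that the highest and the second lowest of the 12 values stood in the same group. For VEH-CD relative to VEH-WT the log2 fold change was -0.44 ± 0.28 (SE, 95% interval -1.05 to 0.17, adjusted p = 0.563), and for VERCUR-CD relative to VEH-CD it was 0.21 ± 0.28 (95% interval -0.40 to 0.82, adjusted p = 0.894). Leaving out 1 mouse at a time moved the first of these from -0.72 to -0.25 and the second from -0.08 to 0.49. The study, with its own test and relative values, reports Mrc1 as downregulated in VEH-CD mice and restored by co-treatment. Here the mean was 0.761 times that of VEH-WT in VEH-CD mice and 0.886 times in VERCUR-CD mice, and neither difference was called.

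Cd163 did not share a direction across the treatments. Its normalized counts were 22.4, 32.3 and 36.5 in VEH-WT mice, 38.85, 26.5 and 51.5 in VEH-CD mice, 45.1, 32.4 and 41.4 in VERCUR-WT mice and 24.4, 35.1 and 30.8 in VERCUR-CD mice. All of these groups overlapped. CD against WT was 0.32 ± 0.27 on the log2 scale in VEH-treated mice and -0.39 ± 0.27 in VERCUR-treated mice, with an interaction of -0.71 ± 0.38 (adjusted p = 0.816).

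The secreted proteins of the list, Pf4 and F13a1, were not called either. Pf4 had normalized counts of 16.8, 28.9 and 13.9 in VEH-WT mice, and of 35.4, 23.8 and 27.55 in VEH-CD mice. VERCUR-WT mice had 27.3, 31.5 and 31.9, and VERCUR-CD mice 23.6, 26.1 and 27.9. Its lowest values were those of VEH-WT replicates 1 and 3. VERCUR-WT against VEH-WT gave a log2 fold change of 0.64 ± 0.26 (SE, unadjusted p = 0.0306, adjusted p = 0.944), with the groups overlapping. F13a1 had normalized counts of 70.6, 79.7 and 85.2 in VEH-WT mice, 45.7, 56.5 and 80.3 in VEH-CD mice, 105.6, 83.4 and 78.5 in VERCUR-WT mice and 75.9, 101.6 and 61.6 in VERCUR-CD mice. VEH-CD relative to VEH-WT gave F13a1 a log2 fold change of -0.40 ± 0.23 (adjusted p = 0.518), and VERCUR-CD relative to VEH-CD 0.39 ± 0.23 (adjusted p = 0.867).

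Cbr2 and Ms4a7 varied widely within groups. Cbr2 had normalized counts of 14.6, 32.3 and 17.4 in VEH-WT mice, 25.1, 15.0 and 38.3 in VEH-CD mice, 28.5, 28.7 and 24.15 in VERCUR-WT mice and 21.8, 30.6 and 33.7 in VERCUR-CD mice. Ms4a7 ranged from 10.1 to 18.5 in VEH-WT mice, from 7.95 to 19.4 in VEH-CD mice, from 11.2 to 20.2 in VERCUR-WT mice and from 8.99 to 16.4 in VERCUR-CD mice. The groups of both genes overlapped in every comparison. Over both treatments, CD against WT was 0.16 ± 0.25 for Cbr2 and -0.19 ± 0.26 for Ms4a7 on the log2 scale, with adjusted p values of 0.909 and 0.891.

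Co-treatment moved none of the 8 genes past the threshold. In VERCUR-CD against VEH-CD, in VERCUR-WT against VEH-WT and in VERCUR against VEH over both genotypes, limma and limma-voom called 0 of 8 genes and 0 of all genes tested, or 0.0%. By limma, 3.54%, 5.22% and 2.96% of all genes had an unadjusted p below 0.05 in these comparisons, and of the 8 genes 0, 1 (Pf4) and 0 did. The mice of the compared groups overlapped for all 8 genes in each of them, while 8.34%, 9.72% and 0.076% of all genes did not overlap. The interaction called 0 genes in all with either tool, with 6.05% of all genes and 0 of the 8 at an unadjusted p below 0.05 by limma. VERCUR-CD against VEH-WT, which shares its WT mice with the VEH comparison, called 0 of the 8 genes and 0.199% of all genes, with 1 of the 8, Stab1, at an unadjusted p below 0.05 beside 8.68% of all genes. The intervals remained wide at this number of mice. For VERCUR against VEH over both genotypes the 95% interval of the fold change ran from 0.912 to 1.16 for Stab1, from 0.787 to 1.43 for Mrc1 and from 0.640 to 1.27 for Lyve1.

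As a list, the 8 genes had 3 log2 fold changes above 0 and 5 below in VEH-CD against VEH-WT, and their median was -0.22 beside -0.0028 for all genes tested. Under co-treatment, CD relative to WT mice gave 1 above 0 and 7 below and a median of -0.21 beside 0.0044 for all genes. Over both treatments, CD against WT gave 2 above 0, Pf4 and Cbr2, and 6 below. The median was then -0.24 beside -0.0022 for all genes. Mrc1 had -0.32 and F13a1 -0.29 in that comparison (adjusted p = 0.668 and 0.612 in limma). VERCUR against VEH over both genotypes gave a median of 0.09 beside 0.00015 for all genes, with 7 genes above 0 and 1, Lyve1, below. These counts rest on genes that were for the most part not called.

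Over the 12 mice, the 8 genes did not vary as 1 block. Of the 28 pairs, 22 had a positive and 6 a negative Pearson r of the log2 values over the 12 mice, with a median r of 0.287. The median depended on the group means, and after their removal it was 0.467. Lyve1 with Cd163 then went from 0.198 to 0.739, while Mrc1 with Pf4 stayed negative at -0.356. Mrc1 and F13a1 were the closest pair, at r = 0.871 (permutation test, adjusted p = 0.00336 over the 28 pairs) and Spearman's rho = 0.811 (permutation test, adjusted p = 0.0577). Without the 2 mice farthest from the median of Mrc1 their r was 0.774, and after the group means were removed it was 0.898. This was the 1 pair of 28 with an adjusted p under 0.05 by Pearson's r, and 0 pairs passed by Spearman's rho. Without VEH-CD replicate 1, the mouse lowest in both genes, the r of Mrc1 and F13a1 was 0.821 with an adjusted p of 0.0552 by the permutation test. Lyve1 was close to both, at r = 0.695 with Mrc1 and 0.691 with F13a1 (permutation test, adjusted p = 0.125 for each). Its rho was 0.720 with either (permutation test, adjusted p = 0.103 for each). These permutations moved mice freely across the 4 groups, and the r after removal of the group means was not tested.

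Within the 6 CD mice, Mrc1, F13a1 and Lyve1 were high and low in the same mice, as r was 0.940 for Mrc1 with F13a1, 0.943 for Mrc1 with Lyve1 and 0.930 for Lyve1 with F13a1. The exact permutation p values were 0.00556, 0.0111 and 0.00556, and the adjusted p over the 28 pairs 0.0778, 0.104 and 0.0778 by the exact permutation test. The corresponding rho values were 0.943, 0.829 and 0.943, with exact permutation p values of 0.0167, 0.0583 and 0.0167 and adjusted p of 0.233, 0.408 and 0.233 over the 28 pairs. VEH-CD replicate 3 and VERCUR-CD replicate 2 were the highest CD mice for all of these genes. Within the 6 WT mice the same pairs had r = 0.415, 0.0298 and 0.0063, and the difference between the genotypes was not tested. In the CD mice Stab1 had r = 0.586 with Mrc1, 0.639 with F13a1 and 0.754 with Lyve1. Its levels in these mice spanned only 409.7 to 496.45, while Mrc1 ranged from 89.1 to 202.3.

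Pf4, Cbr2, Cd163 and Ms4a7 had r from 0.396 to 0.657 among themselves and from -0.377 to 0.197 with Mrc1, a grouping that was made after the values were seen and was not tested. The closest other gene to Pf4 was Cbr2 at r = 0.657, to Cd163 it was Cbr2 at 0.617, and to Ms4a7 it was Cbr2 at 0.561. For Stab1 it was Lyve1 at 0.645. Without the 2 mice farthest from the median, r was 0.309 for Pf4 with Cbr2 and 0.290 for Cd163 with Cbr2, and after the group means were removed over all 12 mice it was 0.647 and 0.716. With the group means removed, Cd163 with Pf4 had only 0.157. Lyve1 then had r = 0.739 with Cd163 and 0.689 with Cbr2, so the grouping was not distinct there. Before that removal, the lowest r of all was that of Mrc1 with Pf4, at -0.377 (permutation test, adjusted p = 0.462). The low read numbers of Pf4, Cbr2 and Ms4a7 add counting error to each of these values.

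**Figure D3:**
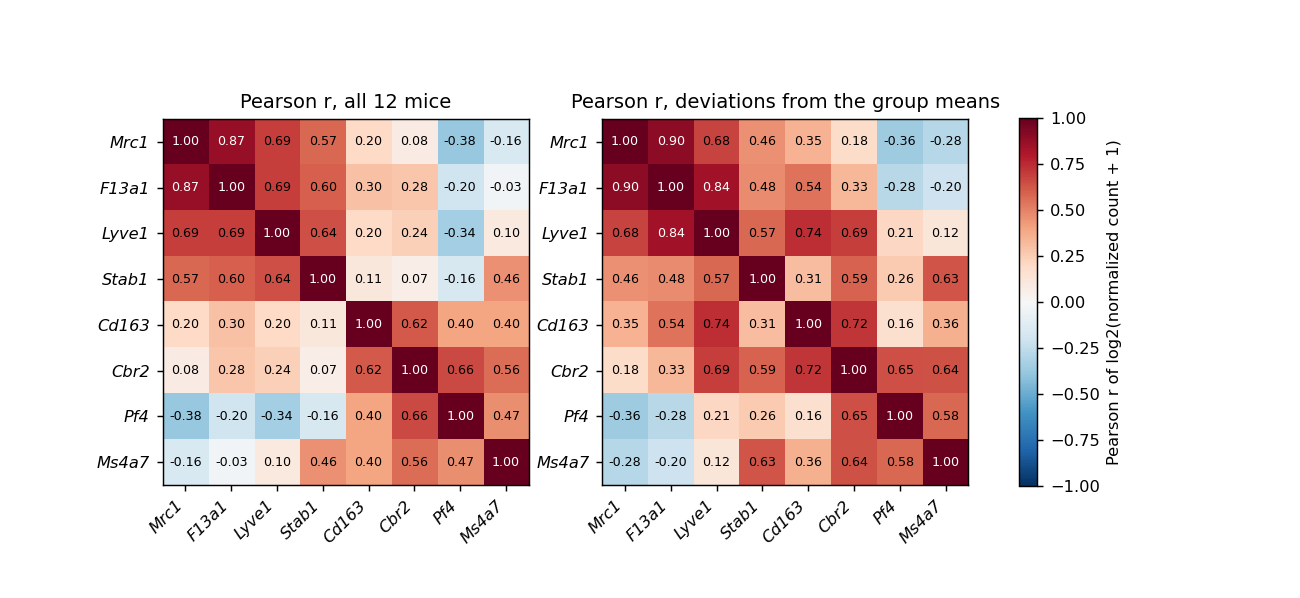
Pearson r between the log2 values of each pair of the 8 genes, over all 12 mice on the left and after removal of the 4 group means on the right; each cell prints its r. The order of the genes was set by hand. In the left panel Mrc1, F13a1 and Lyve1 form the block of high r in the top left corner, with 0.87 for Mrc1 and F13a1. In the right panel Lyve1 has 0.74 with Cd163 and 0.69 with Cbr2, beside 0.68 with Mrc1. Pf4 has negative r with Mrc1 in both panels.

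**Figure D4:**
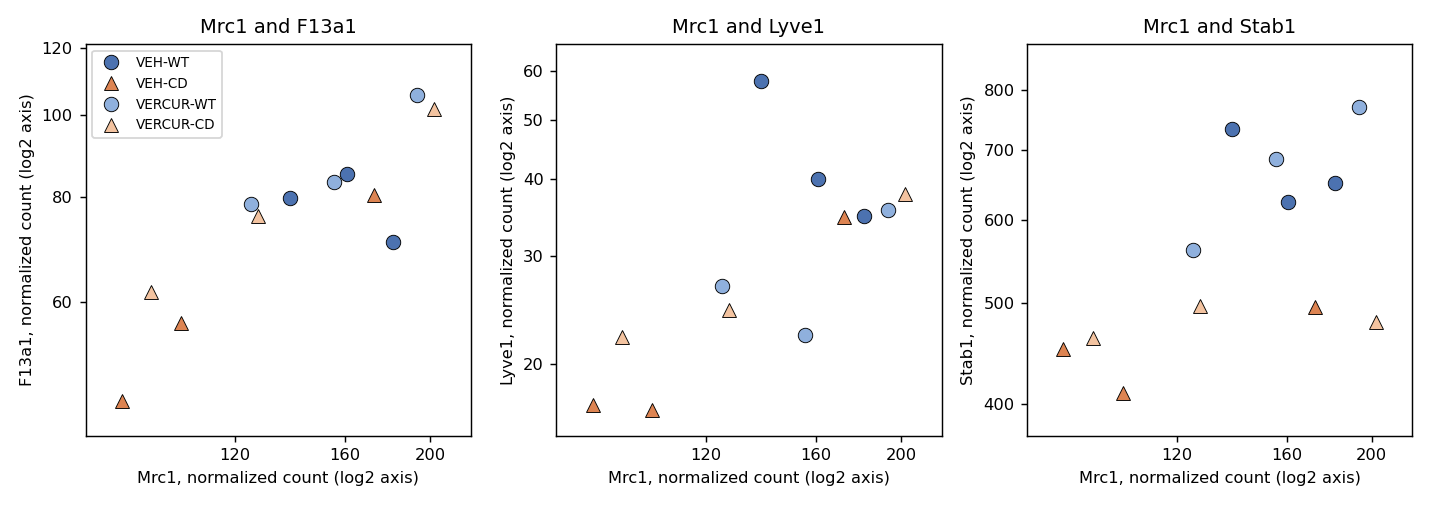
Normalized counts of Mrc1 (x) against F13a1, Lyve1 and Stab1 (y) in the 12 mice, on log2 axes; circles are WT and triangles CD, and colours give the group. Mrc1 and F13a1 rise together, while for Stab1 the 6 CD mice lie between 409.7 and 496.45, below the WT mice at any level of Mrc1.

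A score was taken over the 8 genes as the mean of their log2 values, each centred and scaled over the 12 mice. It was highest in VERCUR-WT replicate 1, at 0.99, and lowest in VEH-CD replicate 2, at -1.21. Among the 14264 other genes that averaged at least 50 normalized counts, the 8 with the highest r with this score were Als2cl (0.902), Gm5417 (0.817), Gm49384 (0.809), Lama1 (0.785), Atp13a4 (0.782), Aox3 (0.780), Cyp1b1 (0.779) and Angptl2 (0.777). Lama1 encodes a laminin chain of basement membranes, and Cyp1b1 a cytochrome P450 found in vessel walls. These values are the top of a long ranking over 12 mice and are given as a description.

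Genes of the other cells of the brain's borders were set beside this score. The 14 genes of meningeal and perivascular fibroblasts had a median r of 0.489 with it, from 0.155 to 0.756, and the decorin gene Dcn was the highest. All 17111 genes tested had a median r of 0.0160, vascular endothelium 0.1002, mural cells 0.237, lymphatic endothelium 0.146 and choroid plexus 0.119. Other lists were nearer to the fibroblasts. Lymphocytes and dendritic cells had a median r of 0.476, and their gene Cd74 reached 0.761. The scavenger receptors outside the 8 had 0.448 and further genes of border macrophages 0.384. The deleted interval, whose genes follow the genotype, had 0.414. The 11 genes of homeostatic microglia had a median r of 0.00095. The summed normalized count of the fibroblast genes ran from 5894 to 6915 in VEH-WT mice, from 5209 to 7491 in VEH-CD mice, from 5528 to 8677 in VERCUR-WT mice and from 5465 to 7721 in VERCUR-CD mice. VERCUR-WT replicate 1, the mouse with the highest score, also had the highest fibroblast sum, and VEH-CD replicate 3 and VERCUR-CD replicate 2 had the highest score and the highest sum of their groups. In VEH-WT mice it was the reverse, as replicate 2 had the highest score, 0.69, with the lowest sum, 5894, and replicate 1 the lowest score, -0.48, with the highest sum, 6915. The part of the amount of border tissue in the sample in these values was not tested. For CD against WT over both treatments, 0 of the 14 fibroblast genes were called by limma, 1 had an unadjusted p below 0.05, and their median log2 fold change was -0.09, beside -0.52 for Stab1.

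Further genes of border macrophages showed no call. Of 18 such genes, 12 were tested, and 0 were called by limma in VEH-CD against VEH-WT and over both treatments. In each, 1 had an unadjusted p below 0.05, beside 11.8% and 9.64% of all genes. Cd209f, a lectin receptor of perivascular macrophages, had group means of 13.4 ± 8.56, 5.03 ± 3.51, 19.7 ± 3.65 and 5.46 ± 0.85 normalized counts (SD, n = 3 each), in the order of the groups used above. Its log2 fold change of CD against WT over both treatments was -1.50 (adjusted p = 0.182), from very few reads. Cd209a and Clec10a, other lectin receptors, had -0.26 and -0.19 (adjusted p = 0.900 and 0.802). The median of the 12 genes was -0.09.

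Microglia genes did not follow Stab1 as a list. Of 11 homeostatic genes, 1 was called over both treatments, beside 0.321% of all genes. At an unadjusted p below 0.05 in limma, 3 were higher and 1 lower in CD mice, beside 4.78% and 4.86% of all genes. The gene called was Olfml3, which was lower in CD with a log2 fold change of -0.42 (adjusted p = 0.0352 in limma). The call of Olfml3 held in 3 of 12 fits that each left out 1 mouse, without VEH-WT replicate 2, VERCUR-WT replicate 3 or VERCUR-CD replicate 1, and the adjusted p reached 0.137 in the others. Olfml3 had group means of 856 ± 133, 661 ± 37.2, 980.4 ± 74.5 and 703 ± 48.1 normalized counts. The purinergic receptor gene P2ry12 had 0.17 and Tmem119 and Sall1 had -0.03 and -0.01 on the log2 scale, with adjusted p values of 0.644, 0.951 and 0.979, and the median of the 11 genes was 0.12. Among the 14 genes shared by microglia and macrophages, 0 were called by limma, and the median was 0.04. Of these, 4 had an unadjusted p below 0.05, all higher in CD mice, beside 4.78% of all genes in that direction. Csf1r, the receptor on which both cell types depend, had a log2 fold change of 0.02 (adjusted p = 0.959), and Aif1 and Ptprc had 0.25 and -0.11 (adjusted p = 0.485 and 0.866).

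Of the 9 genes of CSF1R ligands and macrophage transcription factors, 1 was called, Klf4, in VEH-CD against VEH-WT, beside 0.257% of all genes. At an unadjusted p below 0.05 in limma, 3 were lower and 0 higher, beside 6.73% and 5.07% of all genes. Over both treatments 0 were called by limma, and again 3 were lower and 0 higher at such a p, beside 4.86% and 4.78% of all genes. Klf4 had group means of 476 ± 134, 239.5 ± 27.2, 295.5 ± 32.2 and 278 ± 15.6 normalized counts, and its log2 fold change was -0.96 (adjusted p = 0.0322 in limma). The call of Klf4 held in 5 of 12 fits that each left out 1 mouse, and the adjusted p reached 0.191 without VEH-CD replicate 3. By limma-voom the adjusted p of Klf4 was 0.0547 and it was not called. Over both treatments Klf4 had -0.52 (adjusted p = 0.129). The ligand genes Csf1 and Il34 had -0.02 and -0.12 over both treatments (adjusted p = 0.969 and 0.446). Of 10 scavenger receptor genes outside the 8, 5 were tested. For CD against WT over both treatments limma called 0 of the 5, with 0 at an unadjusted p below 0.05, and in VEH-CD against VEH-WT it called 0, with 1 lower at an unadjusted p below 0.05. Over both treatments Scarb1 was at -0.01, Colec12 at -0.07 and Scarf1 at -0.05. Stab2, the paralogue of Stab1, fell under the limit on low values, with group means from 5.10 to 12.2 normalized counts. In haem and iron handling, limma called 0 of 8 genes and 1 had an unadjusted p below 0.05. The haem oxygenase gene Hmox1 had -0.29, and Blvra and Blvrb, which encode biliverdin reductases, had 0.03 and 0.11. Of 8 genes of alternative activation, 3 were tested and 0 called by limma, with 1 at an unadjusted p below 0.05, and Tgfb1, Il4ra and Ccl17 had -0.06, 0.18 and -0.14.

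The blood cells and vessels that could hold the same transcripts were checked in the same way, for CD against WT over both treatments. In that comparison 9.64% of all genes had an unadjusted p below 0.05 by limma. Of 10 platelet genes, 4 were tested, Itga2b, Gp1bb and Gp9 among them, and limma called 0, with 0 at an unadjusted p below 0.05. Their summed normalized count was 167 to 185 in VEH-WT mice, 128 to 196.5 in VEH-CD mice, 147 to 178 in VERCUR-WT mice and 152 to 196 in VERCUR-CD mice. Their part in the values of Pf4 and F13a1 was not tested. Of 10 monocyte and neutrophil genes, 3 were tested, S100a8, S100a9 and Ngp, and limma called 0, with 0 at an unadjusted p below 0.05. Their sum was 81.8 to 159, 29.1 to 98.2, 81.1 to 127 and 31.8 to 386 normalized counts in the same order of groups, and the highest value was that of VERCUR-CD replicate 1, whose score over the 8 genes was -0.45. Lymphatic endothelium, which also makes Lyve1, had 0 of 3 tested genes called by limma and 0 at an unadjusted p below 0.05, with Prox1 at -0.01, Flt4 at 0.04 and Pdpn at 0.01. Of the other lists, red blood cells (5 genes tested), lymphocytes and dendritic cells (5), vascular endothelium (10), mural cells (10), choroid plexus (6) and cortical projection neurons (8) had 0 genes called by limma, with 0, 1, 0, 0, 1 and 0 genes at an unadjusted p below 0.05. The dendritic cell gene Cd74 had r = 0.761 with the score of the 8 genes, and its list a median r of 0.476.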

How the data were processed

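The authors aligned reads from 12 cortex libraries, 3 per group, to GRCm38 with STAR 2.5.3a, checked them with FastQC and deposited normalized counts per gene and mouse (unit recorded here as a score, because the table writes its values with decimal commas). The counting program, the annotation and the factor are not given in the sources used here. In each mouse, 100% of the values up to 60 lay within 0.006 of a multiple of 1 step per mouse, from which reads and depth were recovered (40287647 to 56480948 reads per mouse). With more reads, counting error is smaller. It is printed as a CV and covers counting alone. The authors also gave relative expression values for short lists of genes, and these were not used. The labels give no batch or date.

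Means of 4 groups were fitted over all 12 mice with limma 3.58.1 (R 4.3.3) and an intensity trend, on log2(normalized count + 1) of the 17111 genes that averaged at least 10. Fold changes are on this scale, which understates those of low genes. Two-sided p values were adjusted by Benjamini-Hochberg over all genes of a comparison. A call asked for an adjusted p below 0.05 and a level changed by more than 25% (interaction: the adjusted p alone). Nothing in the sources says that the mice of a group came from separate litters, so the p values measure the spread between these mice. The script was tested on simulated data. The smallest p of an exact permutation test on 3 mice against 3 is 0.1, and none was run on single genes. Pearson and Spearman correlations (Python 3.11.15, NumPy 2.4.6, SciPy 1.17.1, pandas 2.3.3) used 100000 permutations over 12 mice, or exact enumeration over 6. Gene positions are those of GENCODE M21 on GRCm38, in which 17181 of 17202 genes matched.

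Groups came from the sample labels. The 8 genes and all lists of marker genes were chosen with earlier results of these data known. The text names the 8 genes in each comparison, the first 3 tested genes of each list, any list gene called in a comparison described, the 8 genes closest to the score of the 8, and the closest partner of each gene. Other genes named are said to be so. Some list genes that this rule would name are not reported here. Alternatives in pseudocount, filter, scaling, samples, trend, block and threshold were planned, and limma-voom on recovered reads and those of the pair counts were added after the data were seen.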

Additional observations from a re-analysis of the deposited data

How the results depend on the processing

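The number of the 8 genes called kept its value in every comparison under all processing alternatives, including limma-voom, which was chosen after seeing the data. Stab1 over both treatments stayed called in 10 of 10 of these, with adjusted p from 0.0117 to 0.0327. Leaving out 1 mouse at a time moved the number of genes called from 0 to 1 in VEH-CD against VEH-WT (range 0 to 1, through Stab1, without VERCUR-WT replicate 3) and from 1 to 0 in CD against WT over both treatments (range 0 to 1, without VERCUR-CD replicate 3). The number of pairs with an adjusted p under 0.05, under alternatives chosen after seeing the data, was 1 with pseudocounts of 0.1 and 5 and 0 by rank correlation, and it ran from 0 to 3 with 1 mouse left out (0 without VEH-CD replicate 1, 3 without VEH-WT replicate 2, 2 without VERCUR-CD replicate 2). The cause was not tested. With a mean of at least 50 required, only Mrc1, F13a1 and Stab1 could be tested, and a fit of only the groups compared has no value for the comparisons over both arms and the interaction. edgeR and DESeq2 were planned for a table of counts and were not run, and limma-voom was run on the recovered reads in their place.

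Nothing in the sources used here says that mice with the same replicate number shared a litter or batch. The correlations of deviations of same-numbered mice ran from -0.347 to 0.267. Pairs with different numbers were not set beside them, so these values cannot decide whether a litter or batch was shared. With the replicate number as a block, 1 gene of the 8, Stab1, was called over both treatments (log2 fold change -0.52, adjusted p = 0.0261) and 0 in the other comparisons. With the block, Olfml3 was not called over both treatments (adjusted p = 0.0744). Over the processing alternatives Klf4 in VEH-CD against VEH-WT was called in 8 of 11 fits and Olfml3 over both treatments in 7 of 10, with adjusted p up to 0.0897 and 0.0874.

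Of 1385 fits of genes that were called in neither version, 51 changed sign. With quantile normalization Stab1 became 0.0099 in VERCUR-WT against VEH-WT and Ms4a7 0.026 in VERCUR-CD against VEH-CD, and with limma-voom Lyve1 became 0.0038 in VERCUR-CD against VERCUR-WT. The others came from leaving out 1 mouse, and the ranges of their log2 fold changes were as follows. In VERCUR-CD against VERCUR-WT they ran from -0.49 to 0.045 for Mrc1, -0.24 to 0.16 for Lyve1 and -0.063 to 0.24 for Cbr2. In VERCUR-CD against VEH-CD they ran from -0.079 to 0.49 for Mrc1, -0.27 to 0.0086 for Pf4, -0.13 to 0.51 for Cbr2 and -0.37 to 0.23 for Ms4a7. In VERCUR-WT against VEH-WT they ran from -0.19 to 0.12 for Mrc1 and -0.10 to 0.12 for Stab1. In VERCUR-CD against VEH-WT they ran from -0.52 to 0.011 for Mrc1, -0.20 to 0.14 for Cd163, -0.19 to 0.16 for F13a1 and -0.30 to 0.13 for Ms4a7. In VERCUR against VEH over both genotypes they ran from -0.057 to 0.23 for Mrc1, -0.26 to 0.018 for Lyve1, -0.093 to 0.14 for Cd163, -0.0078 to 0.11 for Stab1 and -0.070 to 0.23 for Ms4a7. In the interaction of genotype and treatment they ran from -0.045 to 0.52 for Mrc1, -0.033 to 0.19 for Stab1 and -0.54 to 0.11 for Cbr2. In CD against WT over both treatments they ran from -0.14 to 0.091 for Cd163. In VEH-CD against VEH-WT they ran from -0.052 to 0.60 for Cbr2 and -0.33 to 0.26 for Ms4a7.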
